A study of Mus musculus with 6 samples.

Results

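The mouse miRNAs miR-680 to miR-721 were measured in the retina of healthy (naive) mice and in that of mice with experimental autoimmune uveoretinitis (EAU), an inflammatory disease of the retina and uvea that serves as a model of human autoimmune uveitis. They were chosen by name alone: every probe whose name holds a mouse miRNA from miR-680 to miR-721, with any arm suffix and without a star, was taken. This gave 41 probes of the 597 mouse miRNA probes on the array. Of the 42 numbers, 40 had a probe, miR-699 and miR-716 had none, and miR-693 had a probe for each arm. Each probe was printed in 4 spots, which made 164 spots per array and 984 over the 6 arrays.

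The study compared 3 naive samples with 3 samples taken on day 14 of developing EAU, all of B10.RIII mice aged 8 weeks. Each sample's total RNA (800 ng) was labelled with the dye Hy3. A pool of equal amounts of all samples was labelled with the dye Hy5 and placed on every array as a shared reference. The arrays carry LNA capture probes, and the labels call the samples independently harvested without giving the number of mice in each, so each p-value speaks of variation from harvest to harvest. The labels used here name no transgene or drug in either group. All naive arrays were scanned on one day and all EAU arrays on another, so the day of scanning and the group cannot be told apart.

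A miRNA is a short RNA that guides Argonaute proteins to messenger RNAs, mainly through its seed, the bases near its 5′ end. Most miRNAs in this number range were named from a few clones in early sequencing of mouse small RNA libraries, and most have no human counterpart of the same number. Some of them were later recognised as pieces of other RNAs: miR-712 and miR-714 derive from the ribosomal RNA precursor, and miR-720 is a piece of a transfer RNA. Others are well studied. MiR-708 is conserved in vertebrates, lies in an intron of the teneurin gene Tenm4, and is known in the eye for its induction by endoplasmic reticulum stress and its action on rhodopsin. Here 4 probes were counted as conserved (miR-708, miR-711, miR-718 and miR-720) and 37 as mouse-only.

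Mature sequences were taken from a RefSeq set (mouse build GRCm38.p6), in which 31 of the 41 probes found a match. The 10 without a match were miR-684, miR-685, miR-689, miR-694, miR-696, miR-709, miR-712, miR-714, miR-715 and miR-720. Of these, miR-684, miR-694 and miR-709 do have a miRNA gene in RefSeq, so the set of sequences used was not complete. For miR-698, miR-700, miR-701 and miR-702 the table held both arms while the array name gives none, which left 27 members with 1 sequence each. MiR-708 was taken as the 5p arm, which carried the older name. The sequences below are those of the members on which the comparison turns, then of members that lay far above the blanks or belong to the conserved group, written 5′ to 3′ with the seed (bases 2 to 8) in capitals.
miR-706: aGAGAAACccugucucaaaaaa
miR-707: cAGUCAUGccgcuugccuacg
miR-721: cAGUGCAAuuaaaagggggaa
miR-697: aACAUCCUgguccuguggaga
miR-704: aGACAUGUgcucugcuccuag
miR-687: cUAUCCUGgaaugcagcaauga
miR-708: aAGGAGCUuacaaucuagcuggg
miR-711: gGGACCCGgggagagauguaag
miR-690: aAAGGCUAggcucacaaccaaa
miR-691: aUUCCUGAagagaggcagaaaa

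MiR-706 lies at chr6:120034290-120034311 on the minus strand, within Wnk1, which encodes a kinase of ion transport. MiR-707 lies at chr7:44849705-44849725 on the plus strand, within Akt1s1, whose product inhibits the mTOR complex. MiR-721 lies at chr5:136375777-136375797 on the minus strand, within Cux1, which encodes a homeobox transcription factor. All positions are in GRCm38.p6. Over all members, 34 had a miRNA gene in RefSeq and 27 lay within a protein-coding gene. Whether that place is an exon or an intron, and on which strand of the host, was not determined. Among the hosts were Rb1, the retinoblastoma tumour suppressor (miR-687), Rfx1, a transcription factor (miR-709), Sf3a3, a splicing factor (miR-697), Pdia4, a protein disulfide isomerase (miR-704), Robo2, an axon guidance receptor (miR-691), and Xpo5, the exporter of miRNA precursors (both arms of miR-693).

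The 27 members with 1 sequence had 27 different seeds, so none shared its seed with another. For 23 of them no other mouse mature miRNA of the table had the seed. MiR-721 was the exception with the most mates: its seed is that of miR-130a-3p, miR-130b-3p, miR-130c and miR-301a-3p, and also of miR-6341 and miR-6389. MiR-708 shared its seed with miR-28a-5p. The GC share of the 27 sequences ranged from 33.3% to 81.0% with a median of 50%, against 52.2% over the 1679 mouse mature miRNAs. The median was 50% in the members above the blank spots on every array and 50.1% in those above them on none, so both sets had about the same GC content.

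The sequence of miR-706 contains a stretch of the B1 element, a repeat with very many copies in rodent genomes. Its bases 2 to 16, searched as GAGAAACCCTGTCTC on both strands, occurred in 30 of 32851 promoter windows of 300 bases (0.0913%). The same search with bases 2 to 16 of every other mouse mature miRNA found more windows for 3 of 1679, namely miR-3473a (54), miR-3473e (51) and miR-3473b (51). For 91.8% of mature miRNAs the stretch was in no window. A match is a match of letters and says nothing of binding.

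Before the comparison, each probe's Hy3 signal was set against 144 blank and negative-control spots of the same array. The blank level was their median plus 3 scaled median absolute deviations, and a probe counted as above the blanks when at least 50% of its spots passed it. By this measure 14 members were above the blanks on all 6 arrays, 14 on 1 to 5 arrays and 13 on none. The corresponding share above on all arrays was 34.1% of the members and 27.6% of the 595 mouse probes tested. Single arrays had 17 to 22 members above the blanks in naive and 17 to 24 in EAU, and 15 members were above on all 3 naive arrays and 17 on all 3 EAU arrays. These counts depend on the level chosen: with the 95th percentile of the blank spots instead, 4 members were above it on all naive arrays and 5 on all EAU arrays.

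**Figure D1:**
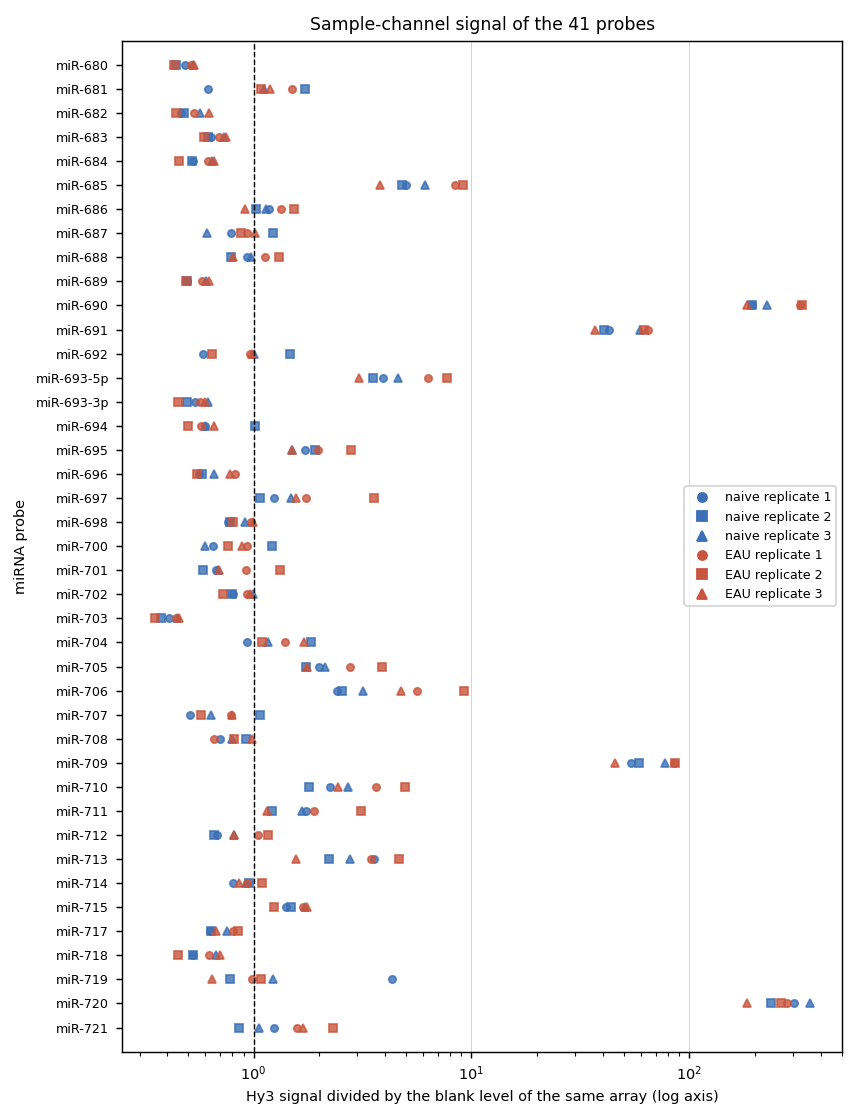
Hy3 signal of each of the 41 probes divided by the blank level of the same array, on a log axis, with 1 point per array (blue, naive; red, EAU; shapes, replicates; dashed line, the blank level). The 14 members above the blanks on all arrays lie right of the line, and the 13 above on none lie at or left of it. A probe's signal depends on its capture sequence, so positions compare arrays within a row and not rows with each other.

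The members above the blanks on every array were miR-685, miR-690, miR-691, miR-693-5p, miR-695, miR-697, miR-705, miR-706, miR-709, miR-710, miR-711, miR-713, miR-715 and miR-720. Those above on none included the conserved miR-708 and miR-718, together with miR-680, miR-682, miR-683, miR-684, miR-689, miR-693-3p, miR-696, miR-698, miR-702, miR-703 and miR-717. For miR-693 the 5p arm was thus above the blanks on all arrays and the 3p arm on none. EAU replicate 2 was the brightest array, with the highest Hy3 signal for 32 of the 41 members, and naive replicate 3 was the lowest for 21. The median Hy3 signal over all spots was 56.8 to 74.2 on the naive arrays and 56.2 to 94.8 on the EAU arrays. The comparison therefore used log2(Hy3/Hy5), the log2 ratio of sample to reference after background correction and normalization within each array.

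Of the 41 members, 3 passed an adjusted p of 0.05 in limma (Benjamini-Hochberg over 595 mouse probes): miR-706 and miR-712 rose in EAU, and miR-707 fell. This was 7.32% of the members, against 77 of 595 mouse probes (12.9%), so the members were called no more often than the mouse probes at large. The 2 that rose stood beside 25 of 595 (4.2%) and the 1 that fell beside 52 of 595 (8.74%). At an unadjusted p under 0.05 there were 11 of 41 members, against 206 of 595 mouse probes. The median difference was -0.01 over the members and -0.01 over all mouse probes, with 20 members above 0 and 21 below. The members' median depended on the processing: it was 0.20 with the scanner software's processed signals and 0.20 with the authors' deposited table (all mouse probes, -0.01 and 0.00; 24 of 41 members above 0 in both), and 0.14 without normalization (all mouse probes, 0.04; 29 of 41 above 0). Naive and EAU arrays did not overlap for 13 of 41 members (31.7%), of which 5 were higher and 8 lower in EAU, against 277 of 595 probes (46.6%). None of the 4 conserved members was called in limma, with 1 at an unadjusted p under 0.05, and all 3 calls were among the 37 mouse-only ones.

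**Figure D2:**
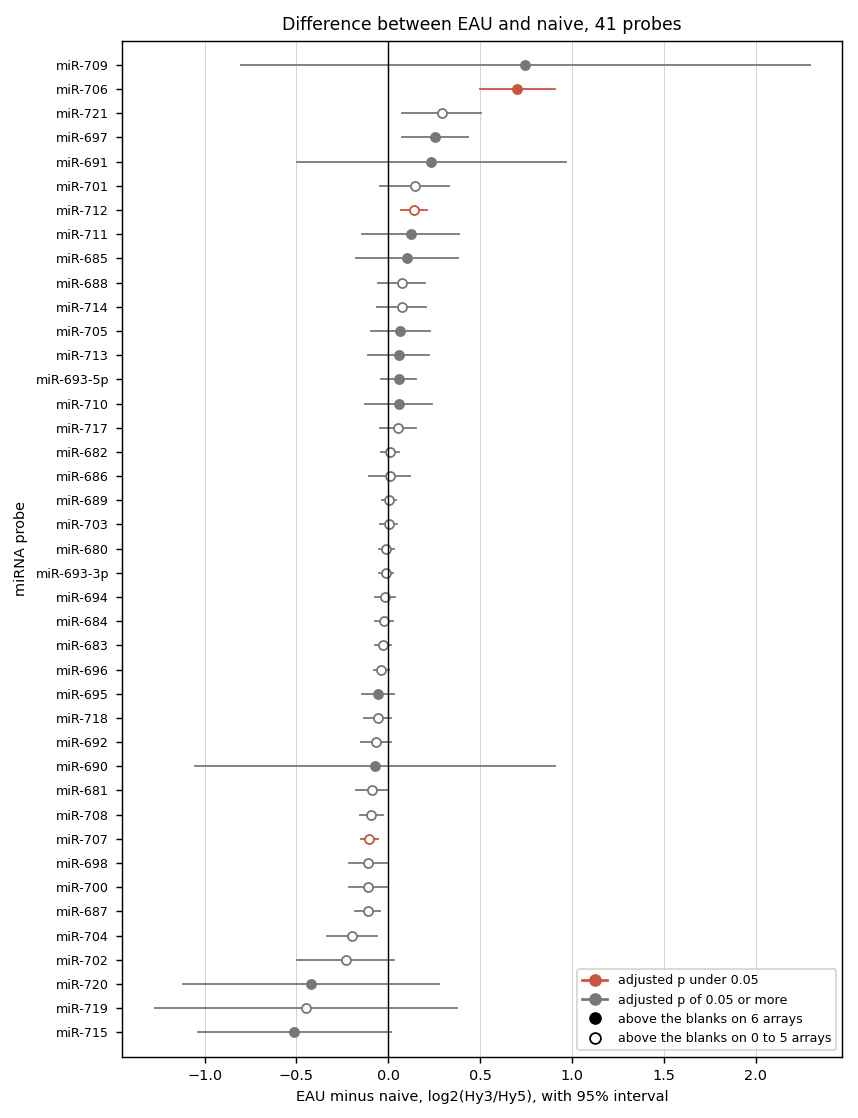
Difference in log2(Hy3/Hy5), EAU minus naive, of the 41 probes with the 95% interval of the limma fit (red, adjusted p under 0.05; filled, above the blanks on 6 arrays). MiR-706 is the called member with the largest difference, while miR-709 has a similar difference (0.74) with an interval that crosses 0.

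The marker miRNAs of other cells moved between these groups too. All 5 probes for miRNAs of retinal neurons and photoreceptors (miR-124, miR-183, miR-96, miR-182 and miR-9) were above the blanks on every array, as the tissue label implies. Their summed Hy3 signal ranged from 46306 to 52860 in naive and from 6304 to 18170 in EAU, and 2 of the 5 fell (miR-183 and miR-9). Most of that sum was miR-124 (43379 to 49401 in naive and 5702 to 16964 in EAU), whose log2 difference of -0.69 was not called (adjusted p = 0.520 in limma). Of 4 leukocyte probes, 1 was above the blanks on all naive arrays and 3 on all EAU arrays, with summed Hy3 of 290.5 to 338 in naive and 487 to 1057 in EAU. Of these, miR-155 was above the blanks on no array and miR-142-3p rose. Both pigment epithelium probes fell. Of 3 erythroid probes miR-486 was called as lower (-0.23), though above the blanks on 1 naive and 3 EAU arrays. MiR-451 (0.14) and miR-144 (0.01) were not called. The summed erythroid Hy3 was 205 to 240 in naive and 214 to 429 in EAU, so these probes gave no single direction. Fewer cells of a type and less RNA per cell cannot be told apart in such samples, and the part of cell composition in the values of the members was not tested.

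MiR-706 was the member with the clearest difference. Its Hy3 signal was 250.05, 272 and 234 in naive replicates 1 to 3 and 471, 1174 and 353 in EAU replicates 1 to 3. All 3 EAU arrays were above all 3 naive arrays. The reference signal Hy5 was 76.5, 109 and 68.9 on the naive arrays and 61.8, 85.6 and 42.3 on the EAU arrays. On EAU replicates 1 and 3 it was lower than on every naive array, a direction that raises the ratio before normalization. The remaining EAU array lay within the naive range. Log2(Hy3/Hy5) was -0.24, -0.36 and -0.26 in naive (-0.29 ± 0.06, SD, n = 3) and 0.25, 0.53 and 0.47 in EAU (0.42 ± 0.15, SD, n = 3). The groups again did not overlap, and every EAU array was above 0 where every naive array was below.

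The log2 difference of miR-706 was 0.70 (SE 0.08, 95% interval 0.50 to 0.91), or 1.63-fold, with an adjusted p of 0.0149 in limma. Each of the 4 spot positions gave a difference of the same sign, from 0.59 to 0.83, and none of its spots was marked as an outlier. The Hy3 channel alone, quantile-normalized between arrays, gave 0.87 (SE 0.13, adjusted p = 0.0163 in limma). In that comparison miR-706 was the only one of the 41 members called, against 57 of 595 mouse probes (9.58%). The offset of 50 compresses such ratios: with an offset of 10 the difference was 1.10, and it was 1.40 in the log2 of the ratios that the authors deposited. The call ended without naive replicate 1 (adjusted p = 0.0642), without naive replicate 2 (0.0547) and without EAU replicate 3 (0.0627), with median centring in place of loess (difference 1.44, adjusted p = 0.0605) and with the replicate number as a block (0.0776), all in limma. The difference stayed between 0.61 and 1.51 over 13 other settings and was called in 11 of them.

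MiR-712, the ribosomal RNA fragment, was dim. Its Hy3 signal was 70.2, 70.3 and 59.9 in naive and 87.6, 148 and 60.3 in EAU, above the blanks on no naive array and on 2 EAU arrays. The Hy3 signal of EAU replicate 3 lay among the naive values. In log2(Hy3/Hy5) it was -0.07, -0.13 and -0.04 in naive and 0.03, 0.09 and 0.06 in EAU, which do not overlap. The log2 difference was 0.14 (SE 0.03, 95% interval 0.07 to 0.21, adjusted p = 0.0403 in limma), or 1.10-fold.

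Since no naive array had miR-712 above the blanks, its naive value is a bound, which puts the mean normalized Hy3 signal at least 1.05-fold higher in EAU. The bound sets the mean over the EAU arrays against a floor on each naive array. That floor is the higher of the probe's own signal and the lowest among mouse probes above the blanks. The bound has no interval, and its EAU mean includes EAU replicate 3, whose Hy3 signal was 0.81 of the blank level. The spot positions of miR-712 gave 0.08 to 0.19. Leaving out any 1 of the 6 arrays ended its call (adjusted p from 0.0524 to 0.118 in limma), and so did the Hy3 channel alone (0.26, adjusted p = 0.109). The difference was above 0 in all 12 other settings in which miR-712 was tested, from 0.14 to 0.76, and called in 5. The star strand of the same hairpin, miR-712*, had a log2 difference of -0.38 (SE 0.16, adjusted p = 0.152 in limma) and was above the blanks on all arrays, so the strand called as higher and its partner differed in sign.

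MiR-714, also from the ribosomal RNA precursor, was above the blanks on 1 EAU array only. The log2 ratio was 0.05, -0.05 and 0.09 in naive and 0.04, 0.19 and 0.08 in EAU. The groups overlapped, with a log2 difference of 0.07 (SE 0.05, adjusted p = 0.364 in limma). Hence 1 of the 2 members from this precursor was called.

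MiR-707 was the only member called as lower. Its Hy3 signal was 52.8, 114 and 47.1 in naive and 65.9, 72.7 and 59.4 in EAU, above the blanks on naive replicate 2 alone. These signals overlapped. In log2(Hy3/Hy5) it was -0.02, 0.02 and -0.01 in naive and -0.10, -0.11 and -0.11 in EAU, with all EAU arrays lower, and the log2 difference was -0.10 (SE 0.02, adjusted p = 0.0264 in limma). No fold is given, since the probe was above the blanks on no EAU array and the bound from the Hy3 signals was under 1. The difference came from 1 of its 4 spots: the first spot gave -0.34, and the others gave between -0.05 and 0.01. With the median of the spots in place of their mean it was -0.03 (adjusted p = 0.364 in limma). Without normalization (0.02) and in the Hy3 channel alone (0.02) the sign turned. When 1 array was left out, the call stood only without EAU replicate 2 (adjusted p = 0.0487 in limma), and ended without any of the other five (0.0524 to 0.0866).

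**Figure D3:**
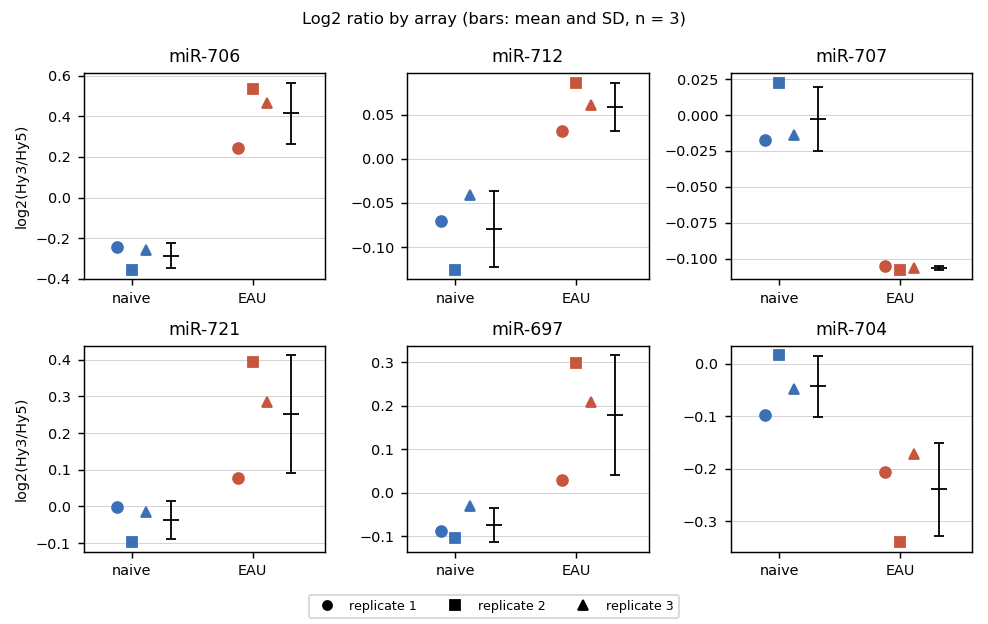
Log2(Hy3/Hy5) on each array for the 3 called members (top) and for miR-721, miR-697 and miR-704 (bottom), each with its own axis; points are arrays, shapes are replicates and bars are the mean ± SD of 3 arrays. In all 6 panels the groups do not overlap, and the axis of miR-706 spans about 1 log2 unit while that of miR-707 spans far less.

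Next to these stood members whose groups did not overlap and whose adjusted p was between 0.05 and 0.10. MiR-721, which has the seed of the miR-130 and miR-301 family, had a Hy3 signal of 128, 91.5 and 78.3 in naive and 132, 293 and 125 in EAU. On the ratio scale it was 0.00, -0.10 and -0.01 in naive and 0.08, 0.39 and 0.28 in EAU. EAU replicate 1 lay close to the naive arrays and the other two well above them. The difference was 0.29 (SE 0.09, adjusted p = 0.0784 in limma), with spot positions between 0.28 and 0.32.

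MiR-697 gave a similar picture. Its Hy3 signal was 129, 115 and 109.6 in naive and 146, 455 and 116 in EAU, above the blanks on all arrays. Its log2 ratio was -0.09, -0.11 and -0.03 in naive and 0.03, 0.30 and 0.21 in EAU. Again EAU replicate 1 was the lowest of its group. The difference was 0.25 (SE 0.07, adjusted p = 0.0736 in limma), with spot positions between 0.21 and 0.29. Both miR-721 and miR-697 were called in 3 of 13 other settings, namely with an offset of 10, with the scanner software's processed signals and with the authors' deposited table, and both without EAU replicate 1 (adjusted p = 0.0219 and 0.0185 in limma). Their differences were above 0 in all 13.

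Other members had lower log2 ratios on every EAU array. MiR-704 was at -0.10, 0.02 and -0.05 in naive and -0.21, -0.34 and -0.17 in EAU, a difference of -0.20 (SE 0.05, adjusted p = 0.0717 in limma). Its Hy3 signal of 95.8, 195 and 86.5 in naive and 116, 138 and 126 in EAU overlapped. Its spots fell into pairs, at -0.34 and -0.36 for spots 1 and 2 and at -0.04 and -0.04 for spots 3 and 4. MiR-687, within Rb1, was at -0.07, 0.01 and -0.01 in naive and -0.12, -0.13 and -0.16 in EAU, a difference of -0.11 (SE 0.03, adjusted p = 0.0563 in limma), of which the first spot gave -0.37 and the others -0.06 to 0.02. A first spot bright in both dyes was common to miR-681, miR-687, miR-692, miR-694, miR-700, miR-704, miR-707 and miR-708. On naive replicate 2 these first spots had Hy3 of 258 to 333 and Hy5 of 83.0 to 107. Their spots 4 had Hy3 of 54.9 to 92.3 there. The lower ratios of miR-681, miR-687, miR-704, miR-707 and miR-708 are thus not separate observations, and the cause was not tested.

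MiR-708, the conserved miRNA of the eye's stress response, was above the blanks on no array. Its Hy3 signal was 72.4, 98.3 and 58.9 in naive and 54.6, 103 and 72.8 in EAU. Its log2 ratio was 0.08, 0.05 and 0.06 in naive and 0.02, -0.05 and -0.05 in EAU, where all EAU arrays were lower. The difference was -0.09 (SE 0.03, 95% interval -0.15 to -0.03, adjusted p = 0.0698 in limma), and its first spot gave -0.24 against -0.05 to -0.04 for the others. Without EAU replicate 1 it was called (adjusted p = 0.034 in limma). As no array had the probe above the blanks, a change in miR-708 was not measurable at this signal. Its star strand, miR-708*, was also above the blanks on no array, with a difference of -0.02 (SE 0.02, adjusted p = 0.512 in limma).

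The other conserved members were miR-711, miR-718 and miR-720. MiR-711, within the type VII collagen gene Col7a1, had a Hy3 signal of 179, 130.1 and 124 in naive and 159, 394 and 85.9 in EAU. EAU replicate 2 was the highest and EAU replicate 3 the lowest of all 6. The log2 difference was 0.12 (SE 0.11, 95% interval -0.14 to 0.39, adjusted p = 0.451 in limma). MiR-718 was above the blanks on no array, with a Hy3 signal between 49.9 and 57.5 and a difference of -0.06 (SE 0.03, adjusted p = 0.217 in limma).

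MiR-720, the transfer RNA fragment, gave a Hy3 signal of 31157, 25129 and 26320 in naive and 23353, 33285 and 13588 in EAU. The values of EAU replicates 2 and 3 were the highest and the lowest of the 6. The log2 ratio was -1.41, -0.86 and -1.48 in naive and -1.21, -1.70 and -2.10 in EAU. The groups overlapped, and the difference was -0.42 (SE 0.28, 95% interval -1.12 to 0.28, adjusted p = 0.325 in limma), an interval with values on both sides of 0. Of its 24 spots over the arrays, 8 were marked as outliers. On EAU replicate 2 this left out 3 spots, so that value rests on 1 spot.

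The 3 mouse-only members miR-690, miR-691 and miR-709 were also far above the blanks. MiR-690, within the fibroblast growth factor homologue gene Fgf12, had a Hy3 signal of 19993, 20618 and 16824 in naive and 26682, 41912 and 13575 in EAU, with EAU arrays at both ends. The log2 difference was -0.07 (SE 0.39, 95% interval -1.05 to 0.91, adjusted p = 0.918 in limma). The sign was not stable: the difference was above 0 in 9 of 13 other settings, with 0.44 (SE 0.18, adjusted p = 0.200 in limma) in the Hy3 channel alone and a call at 1.25 without normalization (adjusted p = 0.0204 in limma). With 1 array left out it ranged from -0.40 to 0.24.

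MiR-691 had a Hy3 signal of 4390, 4325 and 4383 in naive and 5383, 7889 and 2739 in EAU. The naive arrays lay close together and the EAU arrays on both sides of them. The log2 difference was 0.23 (SE 0.29, 95% interval -0.50 to 0.97, adjusted p = 0.606 in limma), and in the Hy3 channel alone 0.01 (SE 0.09). It was above 0 in all 13 other settings and called in 1 of them, without normalization (1.16, adjusted p = 0.0345 in limma), and ranged from -0.07 to 0.41 with 1 array left out.

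MiR-709, within Rfx1 and known as a nuclear miRNA that acts on the maturation of other miRNAs in the mouse, had a Hy3 signal of 5556, 6275 and 5684 in naive and 7073, 10924 and 3371 in EAU. On the ratio scale it was -0.18, -0.54 and -0.81 in naive and 1.62, -0.56 and -0.35 in EAU. EAU replicate 1 alone was above 0, and its value rests on 1 spot because the others were left out as outliers. The value of EAU replicate 2 also rests on 1 spot, spot 4 at -0.56. Its spot 1, at 1.23, was among those left out there. The difference of 0.74 (SE 0.62, 95% interval -0.80 to 2.29, adjusted p = 0.437 in limma) became 0.05 without EAU replicate 1 and 0.15 with outlier spots kept.

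In these 4 members the spots of 1 probe differed, mostly in the Hy5 channel for miR-709. Outlier marks covered 34 of the 984 spots and 6 members (miR-685, miR-690, miR-691, miR-709, miR-713 and miR-720), with 13 on miR-709. The Hy5 signal of the 4 spots of miR-709 differed by 2.73-fold to 5.90-fold within an array, and the Hy3 signal by 1.18-fold to 1.99-fold. Some dimmer members with 0 outlier marks had wider Hy3 spreads within an array, up to 8.57-fold for miR-700 and 7.25-fold for miR-687. The first spot had the highest ratio of the 4 on every array for miR-709, miR-690 and miR-691, naive and EAU alike.

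**Figure D4:**
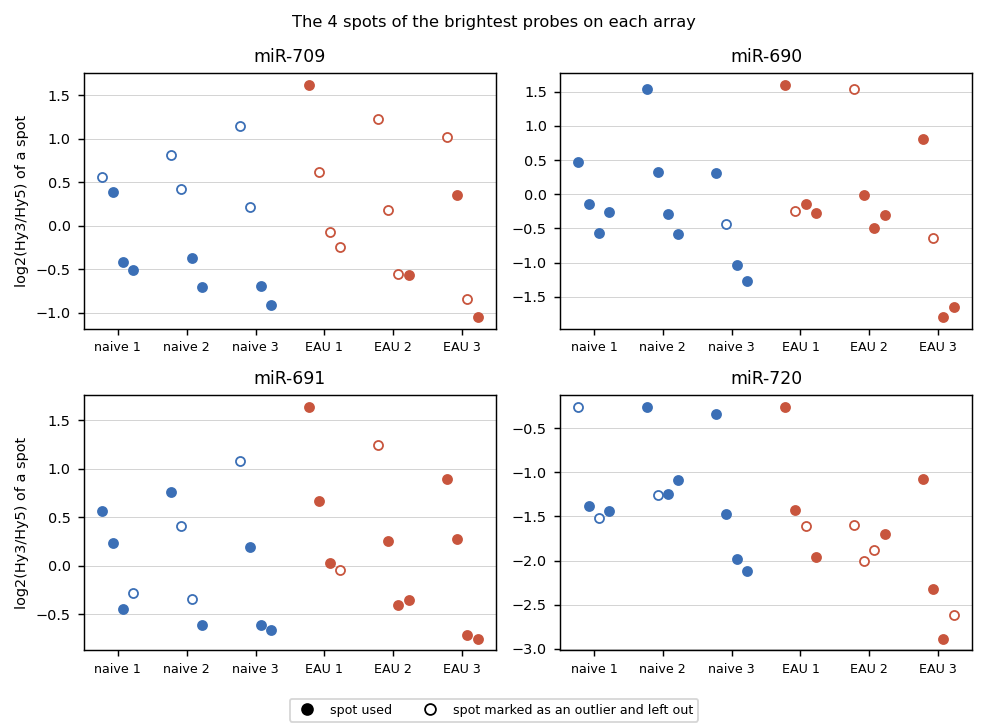
Log2(Hy3/Hy5) of each of the 4 spots of miR-709, miR-690, miR-691 and miR-720 on every array, in the order of the spots from left to right (blue, naive; red, EAU; open, marked as an outlier and left out). On EAU replicate 1 only 1 spot of miR-709 remains, at 1.62, and it is the first spot, which is high on every array. On EAU replicate 2 only spot 4 of miR-709 remains, at -0.56.

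Of the other members above the blanks on every array, miR-715 and miR-685 have no miRNA gene in the RefSeq table. MiR-715 had a Hy3 signal of 146, 158 and 127 in naive and 140.4, 158 and 129.9 in EAU, nearly the same in both groups. Its log2 ratio was -0.89, -0.66 and -1.25 in naive and -1.20, -1.78 and -1.36 in EAU. The groups overlapped, and the difference was -0.51 (SE 0.21, 95% interval -1.04 to 0.01, adjusted p = 0.152 in limma), against -0.12 (SE 0.21) in the Hy3 channel alone. MiR-685 had a Hy3 signal from 281 to 1165 over the arrays and a log2 difference of 0.10 (SE 0.11, adjusted p = 0.557 in limma).

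The remaining members of that group were miR-693-5p, miR-695, miR-705, miR-710 and miR-713. Their differences lay between -0.06 (miR-695) and 0.07 (miR-705), with adjusted p from 0.295 (miR-695) to 0.621 (miR-710) in limma. For each of them naive and EAU arrays overlapped. The 95% intervals reached at most 0.24 in either direction (miR-710). Other settings called none of them but gave larger differences, up to 0.65 for miR-710, 0.61 for miR-693-5p, 0.52 for miR-705, 0.40 for miR-713 and 0.35 for miR-695.

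MiR-719 stood apart on 1 array. Its Hy3 signal was 447 in naive replicate 1, against 83.2 and 91.1 in the other naive arrays and 82.2, 138 and 47.9 in EAU. All 4 spots of that array were high, from 425 to 476, while its Hy5 signal of 46.4 was like that of the other arrays. The log2 difference was -0.45 (SE 0.33, adjusted p = 0.365 in limma) with naive replicate 1 and -0.08 without it.

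The rest were near the blanks. MiR-681 (-0.09, adjusted p = 0.142), miR-698 (-0.11, adjusted p = 0.138) and miR-701 (0.14, adjusted p = 0.229, limma) had groups that did not overlap and missed the threshold, as did miR-683 and miR-696 with differences of -0.03 and -0.04. MiR-681 was above the blanks on 1 naive and 3 EAU arrays, miR-701 on 1 EAU array, and miR-698 on none. On each EAU array only spots 1 and 2 of miR-681 passed the blank level. These spots gave differences of -0.21 and -0.29, while spots 3 and 4 both gave 0.08. MiR-686, within the proteasome subunit gene Psmb5, was above them on 5 arrays with a difference of 0.01 (SE 0.04, adjusted p = 0.922 in limma). Among the 13 members above the blanks on no array the differences ranged from -0.23 to 0.05. Limma called 0 of them, with 2 at an unadjusted p under 0.05, against 206 of 595 mouse probes.

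Grouped by annotation, the 34 members with a RefSeq miRNA gene had 2 calls (5.88%) and a median difference of -0.01, and the 7 without one had 1 call (14.3%) and a median of 0.00. The mouse-only members had a median of 0.00 and the conserved ones of -0.08. The rodent repeat families miR-297, miR-466, miR-467 and miR-669, also 41 probes, had 12 that rose and 0 that fell in limma, with 22 at an unadjusted p under 0.05 and a median of 0.14. Of the other 513 mouse probes, 62 were called (12.1%, median -0.02) and 173 had an unadjusted p under 0.05. Whether the lists differ was not tested, and the members' median itself moved with the processing, as given above. Of 19 probes for other small RNAs (small nucleolar RNAs, U6 and 5S ribosomal RNA), 11 differed above 0 and 8 below, with a median of 0.01.

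**Figure D5:**
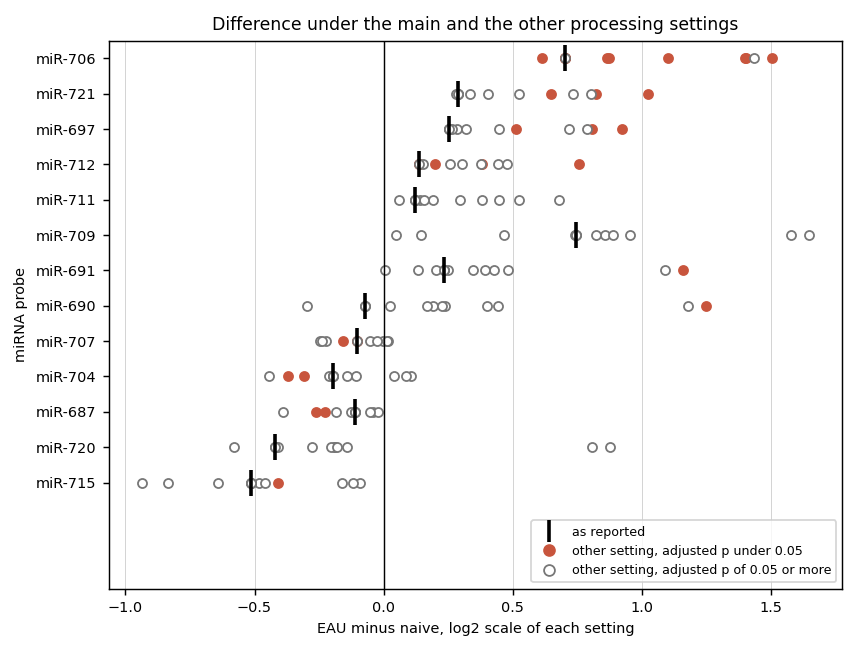
Difference, EAU minus naive, of 13 members under the reported processing (black bar) and under 12 or 13 other settings (red, adjusted p under 0.05; open, 0.05 or more), each on its own log2 scale. MiR-706, miR-721, miR-697, miR-712, miR-711, miR-709 and miR-691 stay above 0 under every setting. MiR-687 and miR-715 stay below 0, while miR-690, miR-704, miR-707 and miR-720 lie on both sides of 0.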

How the data were processed

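The authors deposited 1 scanner file per array with the intensity of each spot in 2 channels, from the Agilent program Feature Extraction (version 9.1.3.1, per the file headers). They also deposited a table of linear ratios (1972 rows). Set against the scanner values it follows Hy3 over Hy5 (median correlation with the processed ratio 0.956 over 497 probes). Its column medians were 0.879, 0.851 and 0.769 in naive and 0.809, 0.886 and 0.807 in EAU. How it was normalized and centred is not given in the sources used here, and 36 rows above 32 on every array were left out.

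Mean spot intensity was corrected for median local background (normexp, offset 50), loess-normalized (control spots, weight 0), cleared of outlier spots and averaged over spots as log2(Hy3/Hy5), in limma 3.58.1 (R 4.3.3). LmFit and eBayes compared the groups over 595 mouse probes. The software's well-above-background flag held for all 597 mouse probes and removed none. All arrays had the same dye orientation, so dye bias does not cancel. Intervals are 95%. The number of arrays limits the precision. The group fit alone was tested on simulated data, with shifts larger than the difference of any called member and without spot or normalization effects. Same-numbered deviations correlated at 0.19, -0.15 and 0.29, and differently numbered ones from -0.44 to 0.30. So few values cannot decide whether the replicate numbers pair the samples.

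Members named were those past the threshold, above the blanks on at least 3 arrays of a group, with the 5 largest differences, with groups that do not overlap (up to 10 by size), conserved, or derived from other RNAs. The remaining members, such as miR-683 and miR-696, are named only where a list is given in full. The members and lists were chosen with earlier results of these data known.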

Additional observations from a re-analysis of the deposited data

How the results depend on the processing

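The count of called members was 3 as reported. It was 0 with median centring (9 at an unadjusted p under 0.05 in limma) and 0 with the replicate block (9), 1 with loess on spots above the blanks, in the Hy3 channel alone and among members above the blanks on at least 3 arrays, 5 with the deposited table, and 6 with an offset of 10 and 6 without background subtraction. Leaving out 1 array gave 0 to 4: 0 when naive replicate 1, naive replicate 2 or EAU replicate 3 was dropped (11, 7 and 8 at an unadjusted p under 0.05), and 1 without naive replicate 3. Over all mouse probes the count of 77 became 2 with median centring, 25 without normalization, 11 with loess on spots above the blanks, 47 with the median of the spots, 2 with the replicate block and 7 to 77 with 1 array left out. The correlations above cannot decide whether the labels' numbers pair samples, so the block is a description of the counts alone. The split of 25 higher and 52 lower became 42 and 30 with the scanner software's processed signals, 42 and 40 with the deposited table, and 21 and 4 without normalization. The median of all mouse probes moved by less than 0.1 under every scaling tried, but that of the members moved from -0.01 to 0.20 with the processed signals, 0.20 with the deposited table and 0.14 without normalization. MiR-707 changed sign without normalization (0.0153) and in the Hy3 channel alone (0.0150), and miR-690, below 0 as reported, was above 0 in 9 of 13 other settings, up to 1.25 without normalization. The causes were not tested. Members above the blanks numbered 15 on all naive arrays and 17 on all EAU arrays, 4 and 5 with the 95th percentile of the blanks, and 15 to 17 and 17 to 20 with 1 array left out. Of the 41 members, 27 were not above the blanks on every array. The share above on every array was 34.1% of the members and 27.6% of the 595 mouse probes tested. Whether low signal has a part in the changes with processing was not tested.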
